A study of Homo sapiens with 183 samples.

Results

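AsPC-1, SUIT-2 and CFPAC-1 are established epithelial cell lines grown from human pancreatic ductal adenocarcinomas (PDAC), and their control libraries were compared with each other here, each line against both others. The libraries are those whose sgRNA targets ROSA26, a locus used as a cutting control, so no gene under study was knocked out in any of them. They comprise AsPC-1 sgRosa replicates 1 to 4 of experiment 3, SUIT-2 sgRosa replicates 1 to 4 and CFPAC-1 sgRosa replicates 1, 3 and 4, which makes 11 of the 183 libraries of a study of the transcription factor KLF5 and its partners RUVBL1 and RUVBL2. CFPAC-1 sgRosa replicate 2 was left out of the comparison and is brought back in where stated. A gene was kept when its mean reached 1 TPM, the transcript share of a library scaled to a common total, in at least 1 line, which left 13555 of 19769 gene names.

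All 11 libraries share the same genotype label (sgRosa) and the same day of collection, day 5. Per the study's methods, Cas9 lines were made with a lentiviral vector and sgRNAs were delivered by lentivirus, AsPC-1 and SUIT-2 were grown in RPMI-1640 with fetal bovine serum, and CFPAC-1 was grown in DMEM with the same serum. The libraries of each line belong to an experiment and a table of their own, so line, experiment and, for CFPAC-1, medium cannot be told apart in any comparison below. For knockout RNA-seq in AsPC-1 and SUIT-2, ROSA26 included, the study's legends name independent sgRNAs and biological replicates. These legends do not cover CFPAC-1. The labels do not say which library carries which sgRNA, or that the libraries of a line came from separate cultures. A p-value thus measures the spread between these libraries only. Each line is 1 cell population and stands for itself, not for a subtype of tumours. In bulk RNA, fewer cells of a kind and less RNA per cell cannot be told apart.

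PDAC cells are commonly described along an axis from a classical state, with genes of the gut and of mucus secretion kept by factors such as HNF4A and GATA6, to a basal-like state, with squamous keratins and TP63. Cell lines also carry fixed losses of tumour suppressors, above all CDKN2A and SMAD4, and many keep traits of tissues outside the pancreas. Levels in control cells are the background on which any knockout in the same line acts.

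The epithelial label was borne out by the levels of its defining genes. KRT19, a keratin of ducts, was measured at 3597, 3706, 3392 and 3477 TPM in AsPC-1, 2719, 2908, 2728 and 2423 in SUIT-2 and 4379, 4638 and 4415 in CFPAC-1. EPCAM, an epithelial surface protein, was measured at 986, 961, 949.5 and 1046 TPM in AsPC-1, 463, 618, 612 and 582 in SUIT-2 and 446, 426 and 476 in CFPAC-1. CDH1, which encodes E-cadherin, was measured at 39.2, 43.9, 42.4 and 45.5 TPM in AsPC-1, 32.2, 85.9, 84.3 and 91.4 in SUIT-2 and 116, 121 and 105 in CFPAC-1, with the lowest value in SUIT-2 replicate 1. No library held less than 32 TPM of any of them, and KRT5, the basal keratin, did not reach the filter of 1 TPM in any line. Markers of other cell types were few. Of 10 leukocyte markers, 3 to 4 reached a mean of 1 TPM in a line and 2 to 3 were at 0 in all its libraries. Of 10 fibroblast markers, 1 to 3 did so, and their summed level was 93.2 to 124 TPM in AsPC-1, 4.39 to 8.47 in SUIT-2 and 14.4 to 19.9 in CFPAC-1. The AsPC-1 sum was almost wholly LUM, a proteoglycan, at 89.97, 93.4, 119 and 96.4 TPM. The fibroblast collagen gene COL1A1 passed a mean of 1 TPM in CFPAC-1 only, although single SUIT-2 libraries reached up to 1.364 TPM. Of 11 acinar markers, only PRSS1 and CELA3A reached a mean of 1 TPM, both in SUIT-2.

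The libraries differed in spread between the lines. Genes at 1 TPM or more numbered 11787 to 11893 per library in AsPC-1, 11706 to 12532 in SUIT-2 and 12555 to 12724 in CFPAC-1, and the median SD of log2(TPM + 1) was 0.101, 0.361 and 0.136. The width in SUIT-2 came with replicate 1, whose log2 levels correlated with the other SUIT-2 controls at r = 0.948 to 0.958 across 13555 genes, against 0.987 to 0.995 among the others. Its median log2 level over all tested genes was 3.32, against 4.06 to 4.19 in the other three, and its 10 highest genes held 14.7% of all TPM, against 8.41% to 8.55%. A single name, LOC112268284, took 34990 TPM there. In CFPAC-1, replicate 3 was closer to both sgCDK1 libraries of its line (r = 0.993) than to the other controls (0.985 to 0.992), replicate 4 was closer to the sgRUVBL2 libraries (0.989 to 0.990) than to the other controls (0.981 to 0.989), and the omitted replicate 2 was closer to the sgKLF5 libraries (0.990 in each of 3) than to the other controls (0.981 to 0.985). The leading counts are given below with and without SUIT-2 replicate 1.

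All pairs of lines differed in many genes. A gene was called when its adjusted p in limma was under 0.05 and the difference of mean log2(TPM + 1) was at least 1. AsPC-1 and SUIT-2 differed in 3335 genes (24.6% of those tested), AsPC-1 and CFPAC-1 in 3995 (29.5%) and SUIT-2 and CFPAC-1 in 3555 (26.2%). The direction was uneven: 1916 genes were higher and 1419 lower in AsPC-1 than in SUIT-2, 1472 higher and 2523 lower in AsPC-1 than in CFPAC-1, and 918 higher and 2637 lower in SUIT-2 than in CFPAC-1. This split moved with scaling. Before it, the median log2 difference over all genes was 0.162, -0.163 and -0.322 in the 3 contrasts. After scaling by the median of ratios, which brings those medians to between -0.013 and 0.006, the share of called genes higher in the first line changed from 57.5% to 45.7% for AsPC-1 and SUIT-2, from 36.8% to 45.9% for AsPC-1 and CFPAC-1, and from 25.8% to 47.3% for SUIT-2 and CFPAC-1. Without SUIT-2 replicate 1 the first and last of these shares were 46.8% and 35.7%.

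A gene was assigned to a line when it was called in the same direction against both other lines. AsPC-1 had 893 genes higher than both others (6.59% of those tested) and 891 lower (6.57%). SUIT-2 had 418 higher (3.08%) and 639 lower (4.71%), and CFPAC-1 had 1391 higher (10.3%) and 362 lower (2.67%). The counts of gene lists below are to be read against these shares. Every library of the line lay beyond every library of the others in 892 of 893 and 870 of 891 genes in AsPC-1. The numbers were 386 of 418 and 624 of 639 in SUIT-2, and 1386 of 1391 and 336 of 362 in CFPAC-1. These genes were called on the same libraries, so such separation follows largely from the call and adds no support to it. The share over all tested genes is not given here. A log2 difference of at least 2 from both others was reached by 266 and 369 genes in AsPC-1, 96 and 108 in SUIT-2, and 411 and 74 in CFPAC-1. The tested genes include 1339 that reached a mean of 1 TPM in 1 line only (341 in AsPC-1, 325 in SUIT-2, 673 in CFPAC-1) and so had to lie above the other lines there. Among the 11046 genes at 1 TPM or more in every line, the fit made on those genes alone gave 591 higher and 407 lower in AsPC-1, 190 and 530 in SUIT-2, and 750 and 277 in CFPAC-1.

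AsPC-1 controls of other experiments show how far libraries of 1 line can lie apart. Experiment 3 differed from experiment 1 of the same line and label in 629 of 12043 genes (5.22%), from experiment 2 in 745 (6.19%) and from the CHD4 experiment in 212 (1.76%). These counts are below any count between lines, but they are not small against the genes assigned to a line. When the controls of experiment 1 or 2 took the place of those of experiment 3, 720 and 669 genes were higher in AsPC-1, and these held 58.8% and 55.7% of the 893. The lower genes carried over more fully, with 88.1% and 91.6% of the 891.

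**Figure D1:**
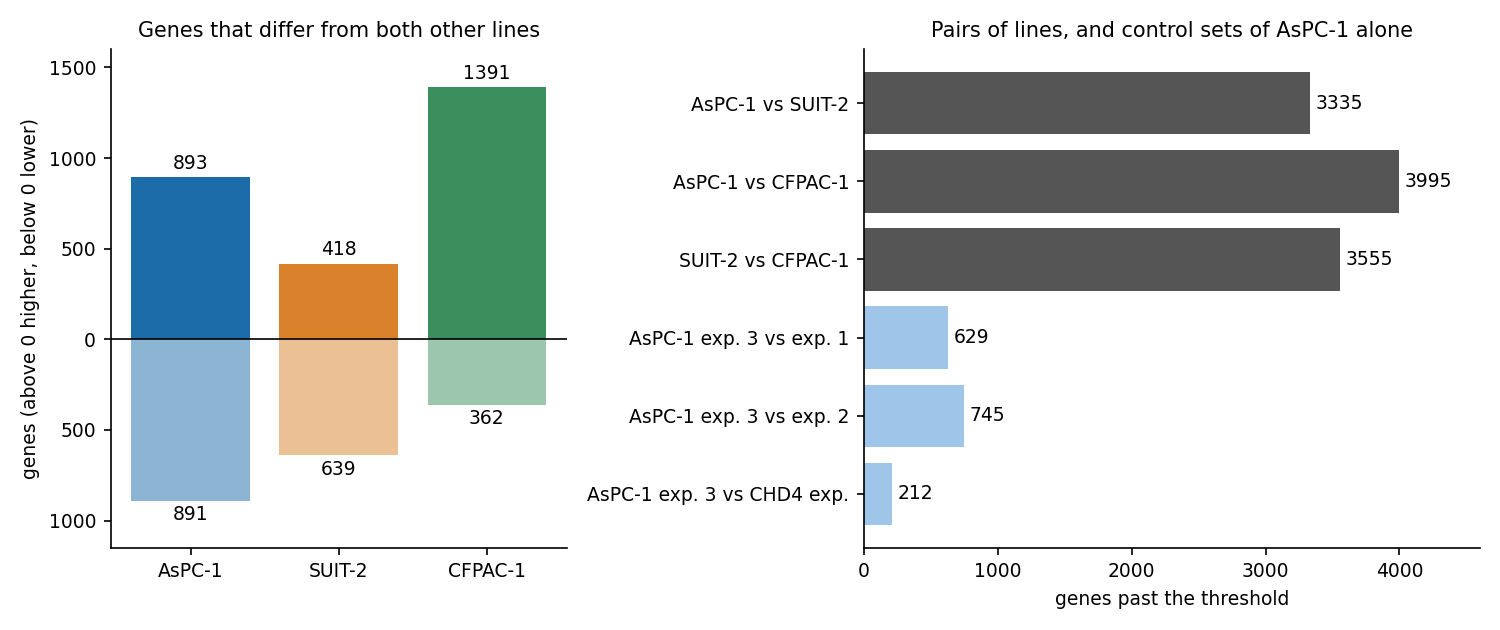
Left, number of genes higher (full colour, above 0) or lower (pale, below 0) in a line than in both others. Right, number of genes past the threshold between pairs of lines (dark) and between AsPC-1 control libraries of experiment 3 and those of other experiments (light blue). CFPAC-1 has the most genes higher than in both others, 1391, and the pairs of lines reach 3335 to 3995 genes against 212 to 745 within AsPC-1.

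AsPC-1 stood apart through genes of the intestinal absorptive cell, at high levels where the other lines were near 0. CDH17, the liver-intestine cadherin, was at 1161, 1147, 1224 and 1142 TPM in AsPC-1, 0.319, 0.468, 0.473 and 0.313 in SUIT-2 and 1.85, 1.59 and 1.94 in CFPAC-1. VIL1, which encodes villin, the actin bundler of microvilli, was at 320.4, 338, 356 and 344 TPM in AsPC-1, 0, 0.308, 0.739 and 0.871 in SUIT-2 and 1.24, 2.27 and 3.17 in CFPAC-1. GPA33, a surface antigen of the gut epithelium, was at 210.1, 231, 258 and 260.1 TPM in AsPC-1, 0, 0.076, 0.0413 and 0 in SUIT-2 and 0, 0.0827 and 0 in CFPAC-1. In each of these the AsPC-1 libraries lie close together and no library of another line comes near them. On the log2(TPM + 1) scale, the difference of AsPC-1 from SUIT-2 in CDH17 was 9.71 (SE 0.11, adjusted p = 4.37e-14) and that from CFPAC-1 was 8.71 (SE 0.12, adjusted p = 3.72e-13). For VIL1 they were 7.89 (SE 0.23, adjusted p = 9.13e-11) and 6.77 (SE 0.25, adjusted p = 4.31e-10). Not all genes at the head of the AsPC-1 order are intestinal. CA9, a surface carbonic anhydrase known for its induction in hypoxia, was at 434, 459, 504 and 499 TPM in AsPC-1, 0, 0, 0.0712 and 0 in SUIT-2 and 0.768, 1.15 and 0.535 in CFPAC-1. PTGIS, the prostacyclin synthase, was at 152, 163, 150.1 and 145 TPM in AsPC-1, 0.162, 0.255, 0.227 and 0.224 in SUIT-2 and 0.263, 0.56 and 0.849 in CFPAC-1. MUC13, a membrane mucin of the gut, was at 239, 248, 308 and 336 TPM in AsPC-1, 0.294, 0.765, 0.863 and 1.23 in SUIT-2 and 1.83, 2.13 and 2.22 in CFPAC-1.

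The brush border list was drawn up around genes of the absorptive border and its enzymes and transporters. It also holds members that are not particular to that border, LGR5, OLFM4, ALPP and ALPPL2 among them. Of its 22 tested members, 13 were higher in AsPC-1 (6.59% of all genes were) and 0 lower, 3 were higher and 4 lower in SUIT-2, and 2 were higher and 2 lower in CFPAC-1. The 13 include the structural genes VIL1, USH1C, CDHR2, CDHR5 and MYO7B, the cadherin CDH17, the surface enzymes ALPP, ALPPL2, ANPEP and DPP4, the peptide transporter SLC15A1, and LGR5. ALPP and ALPPL2 are near-identical copies whose reads kallisto divides, so their separate levels are uncertain. The median difference of the list was 2.15 against SUIT-2 and 3.298 against CFPAC-1, beside 0.162 and -0.163 over all genes tested. The count was 13 without SUIT-2 replicate 1 and after scaling, 12 with the experiment 1 controls of AsPC-1 and 11 with those of experiment 2, while the 4 lower in SUIT-2 became 2 without its replicate 1. Only 4 members reached 1 TPM in every line, of which 3 were higher in AsPC-1. USH1C, which encodes the scaffold harmonin, is a graded case: 227, 246, 228 and 222.2 TPM in AsPC-1, 41.2, 62.7, 69.0 and 68.5 in SUIT-2 and 0.687, 1.75 and 1.14 in CFPAC-1. It was thus higher in AsPC-1 and lower in CFPAC-1, with SUIT-2 between them. CDHR2, the protocadherin of microvillus tips, was at 71.6, 85.6, 78.8 and 76.02 TPM in AsPC-1, 0.0886, 0.174, 0.174 and 0.131 in SUIT-2 and 0.525, 0.48 and 0.244 in CFPAC-1. Members of the list outside the pattern included APOA1 and SLC6A14, which were higher in CFPAC-1, and FABP1, SLC2A2 and OLFM4, which were higher in SUIT-2.

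AsPC-1 was also high in HOX genes and in kallikrein-related peptidases. Of 27 HOX genes tested, 11 were higher and 1 lower in AsPC-1 (6.59% and 6.57% of all genes were), 1 was higher and 5 lower in SUIT-2, and 4 were higher and 4 lower in CFPAC-1. HOXC10 was at 22.4, 21.7, 17.7 and 17.3 TPM in AsPC-1, 0.0699, 0.557, 0.506 and 0.601 in SUIT-2 and 0.2, 0.347 and 0 in CFPAC-1. HOXC11 beside it was at 15.4, 15.6, 14.2 and 12.8 TPM in AsPC-1, 0.199, 0.408, 0.566 and 0.385 in SUIT-2 and 0, 0 and 0.396 in CFPAC-1. HOXB2, a more anterior gene, followed another order, at 37.9, 38.1, 34.4 and 36.6 TPM in AsPC-1, 1.27, 1.48, 1.0 and 1.26 in SUIT-2 and 30.3, 23.4 and 21.2 in CFPAC-1, and was lower in SUIT-2 alone. Among the 11 HOX genes at 1 TPM in every line, 3 were higher in AsPC-1 and 3 lower in SUIT-2. Of 9 kallikrein-related peptidases, secreted serine proteases encoded in 1 cluster, 5 were higher in AsPC-1, but 2 were with the controls of experiment 1 or of experiment 2. KLK11 was at 221, 227, 243 and 235 TPM in AsPC-1, 7.18, 8.66, 16.2 and 10.97 in SUIT-2 and 13.2, 14.9 and 14.6 in CFPAC-1. KLK6 had another profile, at 9.53, 9.68, 9.74 and 9.1 TPM in AsPC-1, 2.03, 1.6, 1.88 and 2.29 in SUIT-2 and 219.5, 234 and 265 in CFPAC-1, and was highest in CFPAC-1 and lowest in SUIT-2. S100A4, a calcium-binding protein often listed with mesenchymal genes, stood at 8051, 7660.0, 7567 and 8073 TPM in AsPC-1 against 120.1, 84.9, 102 and 88.7 in SUIT-2 and 122, 116 and 109 in CFPAC-1.

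Many genes lower in AsPC-1 were near 0 in that line. Of the 891, 484 were under 1 TPM in AsPC-1, against 109 of 639 in SUIT-2 and 85 of 362 in CFPAC-1. LDHB, a subunit of lactate dehydrogenase that most cells express, was at 0, 0, 0.132 and 0.257 TPM in AsPC-1, 1737, 2077, 1895 and 1872 in SUIT-2 and 1083, 1102 and 1238 in CFPAC-1. CD24, a mucin-like glycoprotein, was at 0.527, 0.341, 0.235 and 0.518 TPM in AsPC-1, 348, 445, 759 and 837 in SUIT-2 and 495, 539 and 609 in CFPAC-1. KRT7, a keratin of pancreatic ducts, was lower but not absent, at 3.03, 3.78, 4.86 and 6.252 TPM in AsPC-1, 712, 959, 798 and 758 in SUIT-2 and 1085, 1145 and 1099 in CFPAC-1. IGFBP7, a secreted binding protein, differed between all 3 lines, at 0, 0.136, 0 and 0 TPM in AsPC-1, 986, 976, 959.8 and 979.5 in SUIT-2 and 234, 253 and 289 in CFPAC-1. SPP1, which encodes osteopontin, was at 0.0632, 0.0998, 0.338 and 0.222 TPM in AsPC-1, 116, 116, 133 and 154 in SUIT-2 and 285, 285 and 326 in CFPAC-1.

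Regulators of epithelial identity were among the genes near 0 in AsPC-1. ESRP1, a splicing regulator of epithelial cells, was at 0.26, 0.276, 0.239 and 0.382 TPM in AsPC-1, 63.5, 107, 95.2 and 106 in SUIT-2 and 54.8, 52.7 and 55.7 in CFPAC-1. GRHL2, a transcription factor that upholds cell junction genes, was at 0, 0.0289, 0 and 0.031 TPM in AsPC-1, 11.2, 29.2, 34.7 and 34.3 in SUIT-2 and 39.1, 35.4 and 33.9 in CFPAC-1. Of 18 epithelial and grainyhead factors tested, 1 was higher and 5 lower in AsPC-1, 1 higher and 2 lower in SUIT-2, and 2 higher and 0 lower in CFPAC-1. Of 22 EGF receptor family genes, ligands and feedback genes, 7 were lower in AsPC-1 (6.57% of all genes were) and 1 higher, but 3 and 5 were lower with the controls of experiments 1 and 2. DUSP5, a phosphatase induced by ERK signalling, was at 1.78, 1.41, 1.96 and 2.16 TPM in AsPC-1, 36.2, 64.2, 55.8 and 59.0 in SUIT-2 and 33.5, 32.4 and 27.7 in CFPAC-1. The ligand EREG was at 17.1, 14, 17.3 and 12.9 TPM in AsPC-1, 32.9, 159.7, 156 and 161 in SUIT-2 and 197, 169.9 and 123 in CFPAC-1, with SUIT-2 replicate 1 far under the other libraries of its line. AREG was at 35.1, 37.7, 39.3 and 34.5 TPM in AsPC-1, 149.9, 315, 262 and 307 in SUIT-2 and 360.3, 318 and 309 in CFPAC-1, and it was no longer called lower in AsPC-1 with the controls of experiment 1 or 2, where the smaller of both log2 differences was -0.595 and -0.878.

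**Figure D2:**
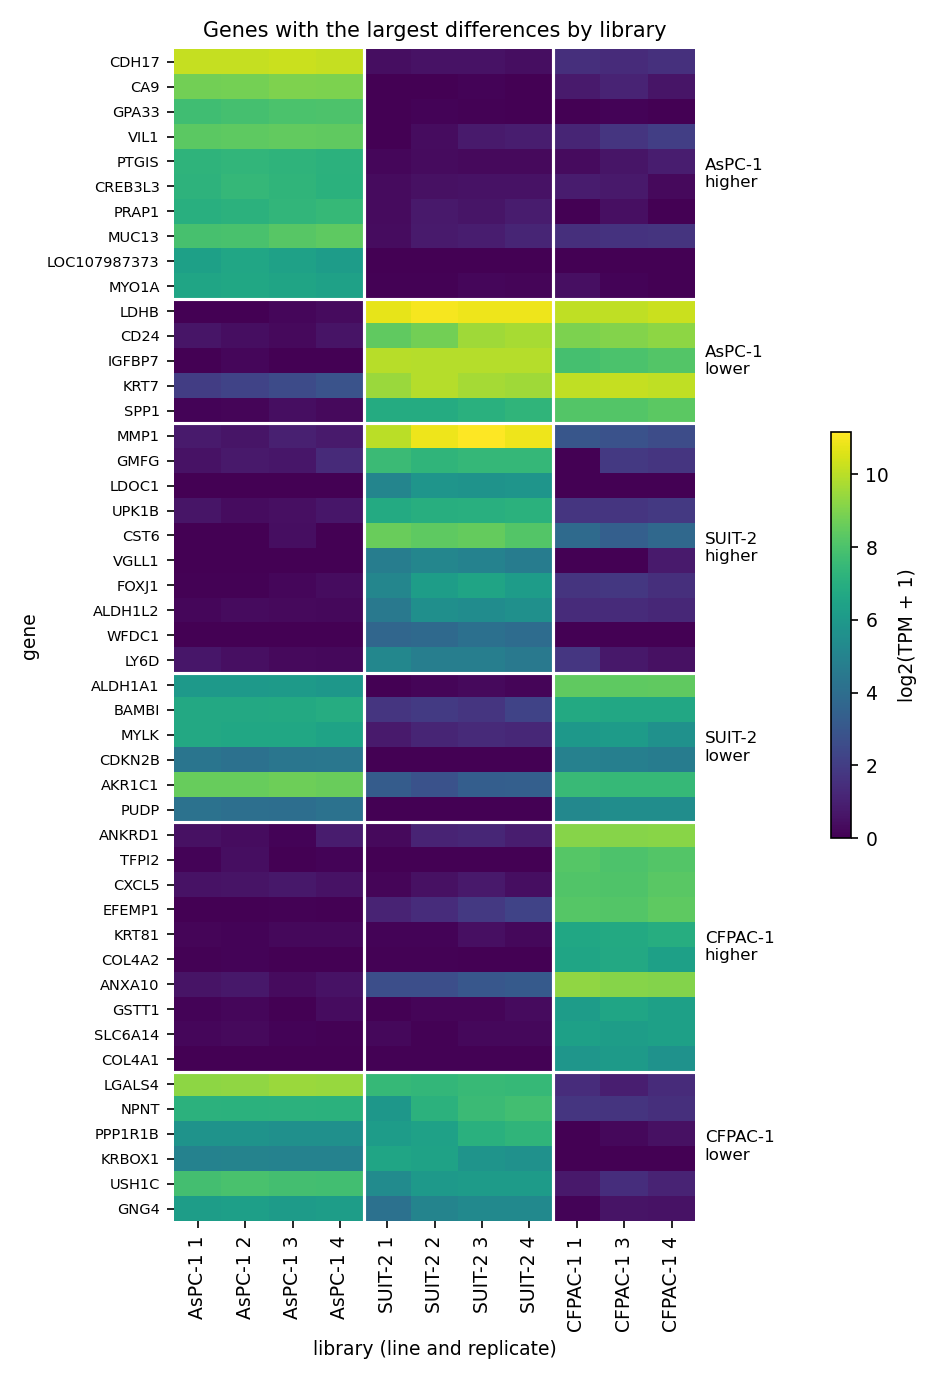
log2(TPM + 1) of the genes that lead each line's higher and lower genes (rows, up to 10 and 6 per line) in each library (columns). White lines separate the lines and the groups of genes. Within a line the libraries share 1 shade in most rows, for instance CDH17 at 1142 to 1224 TPM in AsPC-1.

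SUIT-2 had the fewest genes above both others, and MMP1, GMFG, LDOC1, UPK1B and CST6 led their order. MMP1, an interstitial collagenase, was at 0.727, 0.529, 0.995 and 0.743 TPM in AsPC-1, 1034, 1851, 2286 and 1851 in SUIT-2 and 6.88, 6.04 and 4.98 in CFPAC-1. CST6, a cystatin of stratified epithelia, was at 0, 0, 0.321 and 0 TPM in AsPC-1, 392, 333, 364 and 287 in SUIT-2 and 13.5, 9.41 and 12.5 in CFPAC-1. UPK1B, a uroplakin of the urothelium, was at 0.557, 0.305, 0.385 and 0.599 TPM in AsPC-1, 114, 125.4, 130.5 and 140.0 in SUIT-2 and 2.3, 2.29 and 2.62 in CFPAC-1. For MMP1 the log2 difference of AsPC-1 from SUIT-2 was -9.92 (SE 0.21, adjusted p = 8.20e-12) and that of SUIT-2 from CFPAC-1 was 7.93 (SE 0.23, adjusted p = 1.29e-10). GMFG, an actin regulator best known in blood cells, was at 0.466, 0.711, 0.607 and 1.54 TPM in AsPC-1, 196, 156, 172 and 172 in SUIT-2 and 0, 2.56 and 2.34 in CFPAC-1. LDOC1 was listed at 0 in every AsPC-1 and CFPAC-1 library and at 32.8, 56.2, 52.7 and 56.1 TPM in SUIT-2. VGLL1, a partner of TEAD factors, was at 0 in AsPC-1, 25.4, 34.0, 29.9 and 25.1 TPM in SUIT-2 and 0, 0 and 0.752 in CFPAC-1.

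Genes of the amino acid stress response, which ATF4 is known to induce and which feed serine, glycine and folate synthesis, were high in SUIT-2. The list holds 25 genes, of which 23 have values and 22 were tested. ASNS and MTHFD2 have no values here. Of 22 tested, 10 were higher in SUIT-2 (3.08% of all genes were) and 0 lower, while 8 were lower in AsPC-1 and 1 higher. The 10 were DDIT3, CHAC1, SESN2, PSAT1, PHGDH, SHMT2, SLC7A5, SLC1A4, ALDH1L2 and PCK2. PHGDH, the first enzyme of serine synthesis, was at 0.053, 0.0728, 0.0209 and 0.173 TPM in AsPC-1, 394, 522, 427 and 448 in SUIT-2 and 61.1, 60.9 and 61.3 in CFPAC-1. The lines do not overlap in it, with CFPAC-1 in between and AsPC-1 under 0.2 TPM. ALDH1L2, a mitochondrial folate enzyme, was at 0.142, 0.251, 0.215 and 0.171 TPM in AsPC-1, 21.6, 46.7, 41.6 and 48.04 in SUIT-2 and 1.58, 1.6 and 1.36 in CFPAC-1. STC2, a secreted glycoprotein of the same response, did not follow, since it was listed at 0 in AsPC-1 and stood at 7.21, 18.1, 21.4 and 20.7 TPM in SUIT-2 and 91.7, 89.0 and 65.0 in CFPAC-1. The list median was -2.34 for AsPC-1 minus SUIT-2 and 1.03 for SUIT-2 minus CFPAC-1 on the log2 scale, while the medians over all genes lay the other way, at 0.162 (AsPC-1 minus SUIT-2) and -0.322 (SUIT-2 minus CFPAC-1). The count in SUIT-2 was 12 without replicate 1 and 13 after scaling, and 9 or 11 with AsPC-1 controls of experiment 1 or 2. Among the 16 members at 1 TPM in every line it was 7.

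The promoter of CHAC1, a glutathione-degrading enzyme named here after its values were seen, is shown because it was the only one of 8 SUIT-2-high members with a RefSeq promoter to hold the core of the C/EBP-ATF response element, TGATGNAA on either strand. The core occurred in 1.66% of 10492 promoters of tested genes and in 2 of 10 other list members. A promoter here is 250 bases before to 50 after the gene's start in RefSeq (GRCh38.p14). The 30 bases lie at chr15:40953251-40953280, plus strand, 209 bases before the start, with the match in capitals, read on the opposite strand. CHAC1 was at 2.85, 3.18, 4.03 and 3.91 TPM in AsPC-1, 24.5, 37.0, 67.0 and 67.6 in SUIT-2 and 12.9, 10.1 and 7.14 in CFPAC-1.
CHAC1: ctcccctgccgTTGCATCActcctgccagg

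SUIT-2 was low in sterol synthesis, in aldo-keto reductases and in vimentin. Of 26 genes of cholesterol and fatty acid synthesis, 8 were lower in SUIT-2 (4.71% of all genes were) and 0 higher, among them HMGCS1, IDI1, SQLE, LSS, CYP51A1, MSMO1 and INSIG1. HMGCS1, which makes the precursor of mevalonate, was at 56.0, 55.4, 72.9 and 73.2 TPM in AsPC-1, 5.69, 12.4, 13.1 and 13.2 in SUIT-2 and 72.2, 73.8 and 96.7 in CFPAC-1. SQLE, the squalene epoxidase, was at 63.1, 65.4, 84.04 and 93.6 TPM in AsPC-1, 14.6, 21.1, 17.8 and 17.99 in SUIT-2 and 78.4, 73.7 and 86.3 in CFPAC-1. INSIG1, the sterol-regulated brake on the pathway, was at 41.7, 34.9, 50.5 and 51.1 TPM in AsPC-1, 5.13, 10.9, 11.4 and 11.7 in SUIT-2 and 68.8, 73.5 and 108 in CFPAC-1. SUIT-2 lies under the other lines in every library of these genes. The count stayed at 8 without SUIT-2 replicate 1 and was 7 after scaling, but it was 4 with the AsPC-1 controls of experiment 1 and 2 with those of experiment 2, where 13 members were higher in CFPAC-1 and 3 lower in AsPC-1. SQLE and INSIG1 were no longer called with either set. The sterol genes thus differed between control sets of AsPC-1 as well as between lines. None of 6 promoters of these genes held the sterol regulatory element core TCACNCCAC, found in 1.17% of tested promoters.

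Of 30 antioxidant genes that NRF2 is known to regulate, 8 were lower in SUIT-2 (4.71% of all genes were) and 0 higher, and 3 were higher and 3 lower in AsPC-1, where 5 and 1 were higher with the controls of experiments 1 and 2. AKR1C1, a reductase of steroids and aldehydes, was at 379, 374.6, 410.0 and 386 TPM in AsPC-1, 8.47, 6.06, 8.96 and 9.29 in SUIT-2 and 186, 176 and 178 in CFPAC-1, although its reads may be shared with AKR1C2 and AKR1C3. ABCC2, an efflux transporter, was at 61.2, 63.2, 63.1 and 55.6 TPM in AsPC-1, 1.21, 2.48, 2.37 and 2.06 in SUIT-2 and 1.75, 1.74 and 1.28 in CFPAC-1. ALDH1A1, a retinal dehydrogenase, was at 64.6, 62.1, 67.4 and 58.8 TPM in AsPC-1, 0, 0.101, 0.206 and 0.111 in SUIT-2 and 341, 339 and 348 in CFPAC-1, so that it was both lower in SUIT-2 and higher in CFPAC-1. The pattern reached beyond that list. BAMBI, a decoy receptor of TGF-beta signalling, was at 106, 104, 108 and 119 TPM in AsPC-1, 2.35, 2.74, 2.31 and 3.77 in SUIT-2 and 109.5, 104 and 103 in CFPAC-1. MYLK, the myosin light chain kinase, was at 105, 98.8, 98.5 and 88.9 TPM in AsPC-1, 0.77, 1.22, 1.49 and 1.34 in SUIT-2 and 59.98, 68.4 and 49.1 in CFPAC-1. VIM was low in SUIT-2 as well, though far from 0. This gene, which encodes vimentin, was at 3755, 3838, 3150.0 and 3167 TPM in AsPC-1, 343, 454, 269.7 and 258 in SUIT-2 and 3030.0, 3090.0 and 2864 in CFPAC-1. The log2 difference was 3.42 ± 0.16 (AsPC-1 minus SUIT-2, ± SE, adjusted p = 5.04e-09) and -3.21 ± 0.17 (SUIT-2 minus CFPAC-1, adjusted p = 2.27e-08), while AsPC-1 and CFPAC-1 differed by 0.21 ± 0.17 (adjusted p = 0.313).

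CFPAC-1 was set apart by interferon-stimulated genes, antigen presentation genes and chemokines. Interferons signal through a complex that holds STAT2 and IRF9 to a short promoter sequence, the interferon-stimulated response element, and the genes it controls are known for their part in defence against viruses. Of 42 such genes tested, 30 were higher in CFPAC-1 (10.3% of all genes were) and 0 lower, 1 was higher and 6 lower in AsPC-1, and 0 were higher and 8 lower in SUIT-2. The 30 include the sensors DDX58 and IFIH1, the effectors MX1, MX2, OAS2, OAS3 and RSAD2, and the signalling factors STAT2 and IRF9. IFI27 was at 2.59, 3.53, 3.84 and 5.87 TPM in AsPC-1, 48.4, 54.4, 77.3 and 58.5 in SUIT-2 and 1981, 1852 and 2420.0 in CFPAC-1. IFI6 was at 13.4, 15.1, 14.5 and 16.9 TPM in AsPC-1, 11.04, 10.7, 11.4 and 11.5 in SUIT-2 and 379, 326 and 391 in CFPAC-1, with AsPC-1 and SUIT-2 apart by 0.39 ± 0.11. MX1, which blocks viral nucleoproteins, was at 1.3, 1.5, 0.944 and 1.13 TPM in AsPC-1, 5.72, 8.52, 14.5 and 12.6 in SUIT-2 and 250.1, 160.0 and 229.9 in CFPAC-1. All of these show AsPC-1 and SUIT-2 far below CFPAC-1. IFI44L was at 0.135, 0.103, 0.159 and 0.111 TPM in AsPC-1, 0.304, 0.933, 1.88 and 1.42 in SUIT-2 and 42.6, 28.7 and 44.3 in CFPAC-1. ISG15, a ubiquitin-like modifier, showed a smaller difference over a higher base, at 202, 215, 227 and 245 TPM in AsPC-1, 190.3, 173, 219 and 156 in SUIT-2 and 880.1, 712 and 943 in CFPAC-1. IFIT1, which binds viral RNA, was at 22.5, 20.5, 24.7 and 25.8 TPM in AsPC-1, 2.72, 5.96, 8.12 and 5.72 in SUIT-2 and 87.0, 49.3 and 78.5 in CFPAC-1. CFPAC-1 lies above every library of the other lines in each of these, and replicate 3 is its lowest in MX1, IFI44L, ISG15 and IFIT1.

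The interferon count depended on how the libraries were scaled and on SUIT-2 replicate 1, and was never under 23 of 42 in the settings given here. It was 23 after scaling, 25 without SUIT-2 replicate 1, 26 without CFPAC-1 replicate 4 as well, 29 with CFPAC-1 replicate 2 added, and 30 or 34 with AsPC-1 controls of experiment 1 or 2. Among the 37 members at 1 TPM in every line it was 25. The smaller counts moved more. The 6 lower in AsPC-1 became 11 without SUIT-2 replicate 1 and 14 or 19 with AsPC-1 controls of experiment 1 or 2, and the 8 lower in SUIT-2 became 6, 6 and 3 in the same settings. The list median was -1.91 for AsPC-1 minus CFPAC-1 and -1.70 for SUIT-2 minus CFPAC-1, against -0.163 and -0.322 over all genes. The median level per library was 5.56 to 5.81 in CFPAC-1, 4.13 to 4.42 in AsPC-1 and 3.19 to 4.21 in SUIT-2.

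Promoters of interferon-stimulated genes are shown with the element that interferon signalling acts on. The list was written from genes known to respond to interferon, so a high share of members with the element follows from the list and is no independent support. Of the 30, 23 had a promoter in RefSeq (GRCh38.p14), and 13 of these held it, as GAAA, any 2 bases and GAAA again, on either strand, as did 8 of 9 other members of the list, against 2.84% of 10492 promoters of tested genes and 3.65% of all 27196 promoters. The element was found in a larger share of the other members than of those called. Windows of 30 bases are written in the direction of the gene, with the match in capitals, where a match that starts with TTTC is the same element on the opposite strand. They lie at chr1:27672329-27672358 (IFI6, minus strand, 156 bases before the start), chr14:94110618-94110647 (IFI27, plus strand, 108 before), chr1:78620365-78620394 (IFI44L, plus strand, 73 before), chr1:1013380-1013409 (ISG15, plus strand, 107 before) and chr10:89392497-89392526 (IFIT1, plus strand, 116 before). ISG15 and IFIT1 were chosen after their values were seen.
IFI6: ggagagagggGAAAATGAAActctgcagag
IFI27: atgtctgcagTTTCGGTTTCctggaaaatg
IFI44L: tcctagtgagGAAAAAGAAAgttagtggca
ISG15: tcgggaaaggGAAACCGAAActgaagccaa
IFIT1: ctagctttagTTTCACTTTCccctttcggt

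**Figure D3:**
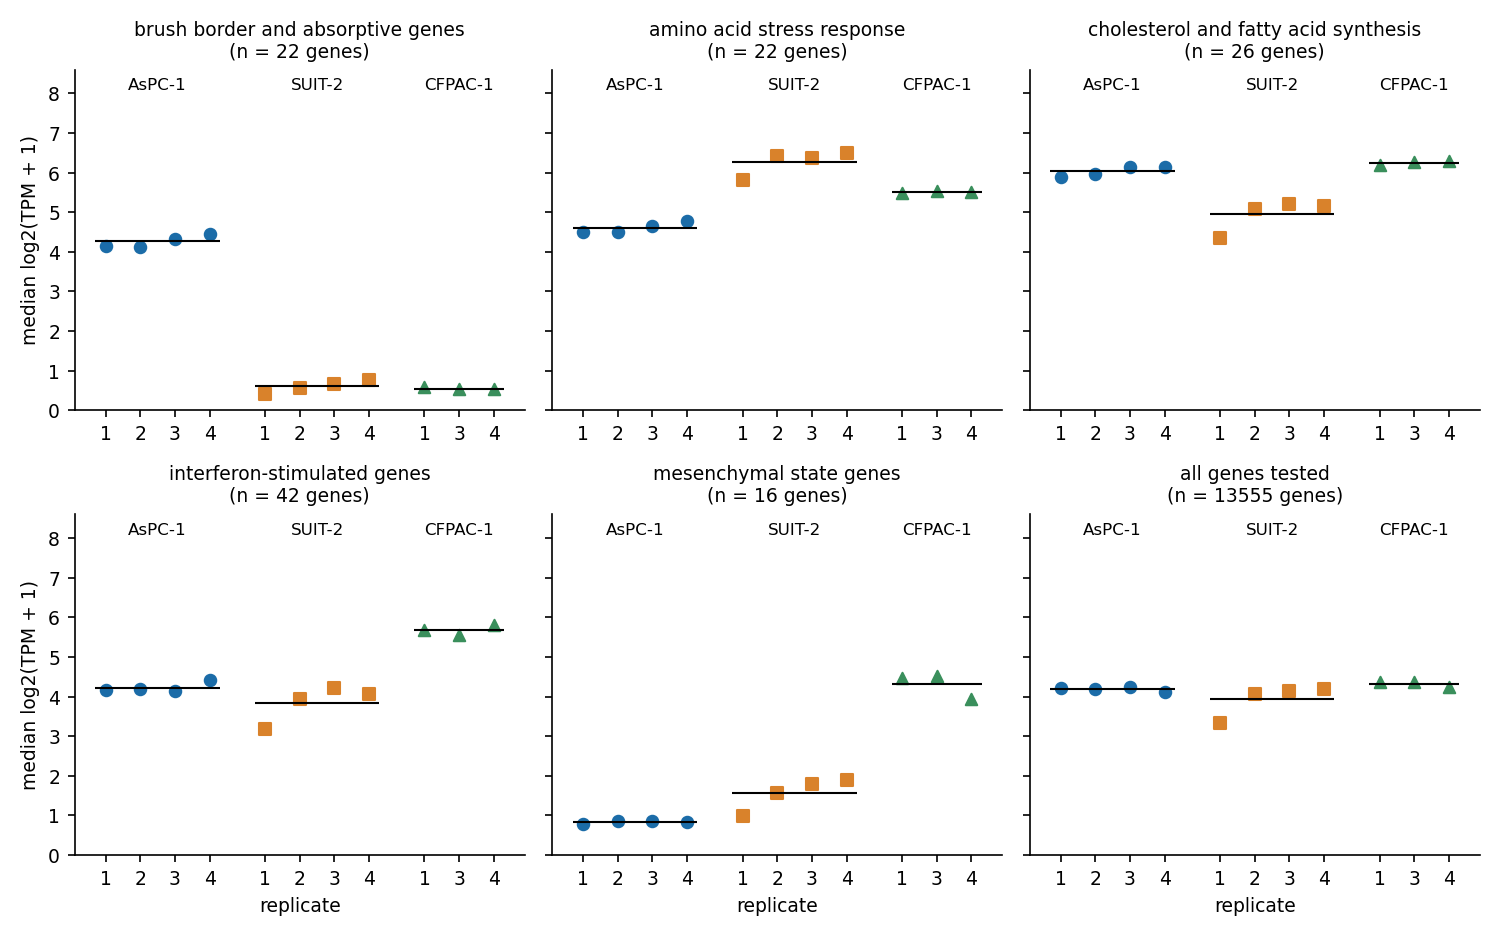
Median log2(TPM + 1) of the tested members of 5 gene lists and of all tested genes in each library. Each point is a library, numbered by replicate, and black lines are the mean over the libraries of a line. Interferon-stimulated genes sit at 5.56 to 5.81 in CFPAC-1 and brush border genes at 4.12 to 4.46 in AsPC-1, and SUIT-2 replicate 1 lies under the other SUIT-2 libraries in the median of all genes, 3.32.

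Antigen presentation genes and chemokines were higher in the same line. Of 28 antigen presentation genes, 12 were higher in CFPAC-1 (10.3% of all genes were) and 0 lower, and 9 were lower in AsPC-1 (6.57%), which became 13 or 15 with the controls of experiment 1 or 2. The 12 include HLA-B, TAP1, PSMB9, CD274, which encodes PD-L1, and class II genes with their regulator CIITA. HLA-DRA, a class II chain usually found on antigen-presenting cells, was at 5.09, 4.32, 5.67 and 6.27 TPM in AsPC-1, 1.82, 1.57, 3.1 and 2.15 in SUIT-2 and 83.3, 85.9 and 109 in CFPAC-1. HLA-DRB1 was at 1.33, 1.77, 2.2 and 2.13 TPM in AsPC-1, 1.99, 1.94, 3.34 and 2.12 in SUIT-2 and 57.7, 62.8 and 65.8 in CFPAC-1. HLA genes are alike and vary between people, so a level by pseudo-alignment to 1 reference is uncertain. The count in CFPAC-1 was 9 after scaling and 12 without SUIT-2 replicate 1. Of 29 chemokines and cytokines, 16 were higher in CFPAC-1 and 1 lower, among them CXCL1, CXCL2, CXCL3, CXCL6, CXCL10, CXCL11 and CCL2. Of these 29, 14 reached 1 TPM in every line, with 6 higher in CFPAC-1, and 4 of the 29 were higher in AsPC-1. CXCL5, which draws neutrophils, was at 0.441, 0.491, 0.669 and 0.463 TPM in AsPC-1, 0.119, 0.397, 0.712 and 0.328 in SUIT-2 and 277, 267 and 319 in CFPAC-1. CXCL8, which encodes interleukin-8, was at 3.55, 2.14, 3.31 and 2.41 TPM in AsPC-1, 1.17, 0.406, 1.09 and 1.46 in SUIT-2 and 86.1, 85.0 and 113 in CFPAC-1. IL6, an inflammatory cytokine, was at 0.0426, 0, 0 and 0 TPM in AsPC-1, 0.0682, 0.0559, 0 and 0.161 in SUIT-2 and 19.5, 22.6 and 18.6 in CFPAC-1. CCL15 broke the pattern, at 35.1, 30.8, 36.5 and 34.7 TPM in AsPC-1, 0, 0, 0.128 and 0.137 in SUIT-2 and 0 in every library in CFPAC-1.

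The genes with the largest differences in CFPAC-1 were, in order, ANKRD1, TFPI2, CXCL5, EFEMP1, KRT81, COL4A2, ANXA10, GSTT1, SLC6A14 and COL4A1. ANKRD1, a known target of YAP and TEAD, was at 0.428, 0.291, 0.0803 and 0.784 TPM in AsPC-1, 0.221, 1.16, 1.3 and 0.869 in SUIT-2 and 563, 560.2 and 571 in CFPAC-1. TFPI2, a protease inhibitor of the matrix, was at 0.084, 0.321, 0 and 0.0696 TPM in AsPC-1, 0 in every library in SUIT-2 and 297, 264 and 290.0 in CFPAC-1. EFEMP1, which encodes fibulin-3, was at 0, 0, 0.0564 and 0 TPM in AsPC-1, 1.15, 1.68, 2.62 and 3.75 in SUIT-2 and 295, 291 and 331 in CFPAC-1. No library of another line reached 4 TPM in these. KRT81, a hair keratin, was at 0.119, 0.0914, 0.175 and 0.192 TPM in AsPC-1, 0.07, 0.0653, 0.391 and 0.194 in SUIT-2 and 99.0, 109 and 122 in CFPAC-1, with reads that may be shared with KRT86. Of 16 mesenchymal state genes tested, 8 were higher in CFPAC-1 (10.3% of all genes were) and 0 lower, with CDH2, FN1, TGFBI, AXL, MMP2, LOXL2, FOXC2 and TWIST2 among them, and 4 were lower in SUIT-2. The count was 8 without SUIT-2 replicate 1, but 2 of 6 among members at 1 TPM in every line. CDH2, which encodes N-cadherin, was at 0, 0, 0 and 0.0392 TPM in AsPC-1, 0.0366, 0.0904, 0.0427 and 0.0663 in SUIT-2 and 40.7, 42.1 and 39.7 in CFPAC-1. TGFB2, a ligand in the TGF-beta list, was at 5.88, 5.87, 7.1 and 7.03 TPM in AsPC-1, 2.49, 4.33, 5.56 and 7.79 in SUIT-2 and 109, 108 and 106 in CFPAC-1.

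The same line also held mucins of the classical state and squamous genes of the basal-like state. Of 9 mucins, 5 were higher in CFPAC-1 (MUC1, MUC4, MUC5AC, MUC16 and MUC20) and 3 in AsPC-1 (MUC3A, MUC13 and MUC17). MUC5AC, the gastric gel mucin, was at 0.308, 0.535, 0.338 and 0.203 TPM in AsPC-1, 0.112, 4.09, 4.02 and 5.52 in SUIT-2 and 157, 136 and 27.8 in CFPAC-1, where CFPAC-1 replicate 4 was far below the other libraries of its line. MUC4 was at 0.0367, 0.112, 0.0311 and 0.121 TPM in AsPC-1, 0.0142, 0.0502, 0.132 and 0.319 in SUIT-2 and 23.1, 23.5 and 9.29 in CFPAC-1, again with replicate 4 lowest. MUC17, an intestinal membrane mucin, was at 28.2, 38.5, 46.2 and 23.1 TPM in AsPC-1, 0, 0, 0.00762 and 0 in SUIT-2 and 0, 0 and 0.0186 in CFPAC-1. Of 26 basal and squamous markers, 14 were higher in CFPAC-1 and 2 lower, 7 were lower and 2 higher in SUIT-2, and 5 were lower and 0 higher in AsPC-1. SPRR3, of the cornified envelope, was at 0.113, 0.171, 0 and 0.163 TPM in AsPC-1, 0 in every library in SUIT-2 and 24.5, 24.5 and 25.8 in CFPAC-1. Among the 10 of these markers at 1 TPM in every line, 5 were higher in CFPAC-1. Of 31 classical secreted and surface markers, 13 were higher and 4 lower in CFPAC-1, 9 higher and 6 lower in AsPC-1, and 1 higher and 4 lower in SUIT-2. TFF1, a trefoil peptide of gastric mucus, was at 0.285, 0, 0.487 and 0.466 TPM in AsPC-1, 0.49, 0, 0 and 0 in SUIT-2 and 19.3, 22.5 and 19.7 in CFPAC-1. AGR2, a disulfide isomerase of mucus-secreting cells, was at 6.94, 7.61, 14.01 and 15.1 TPM in AsPC-1, 473, 351, 413 and 417 in SUIT-2 and 1711, 1622 and 1875 in CFPAC-1. ANXA10, an annexin of gastric epithelium, was at 0.487, 0.635, 0.236 and 0.466 TPM in AsPC-1, 5.46, 5.41, 7.29 and 7.95 in SUIT-2 and 628, 565 and 546 in CFPAC-1.

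CFPAC-1 had the fewest genes below both other lines, 362 against 639 in SUIT-2, but after scaling by the median of ratios it had 572 and SUIT-2 had 365. They include intestinal genes already described. LGALS4, which encodes galectin-4, was at 619, 632, 705 and 695 TPM in AsPC-1, 175, 164, 180.1 and 176 in SUIT-2 and 1.65, 0.939 and 1.63 in CFPAC-1. The lines do not overlap in it, with log2 differences of 1.92 (SE 0.11, adjusted p = 4.27e-08) between AsPC-1 and SUIT-2 and 6.20 (SE 0.12, adjusted p = 9.57e-12) between SUIT-2 and CFPAC-1. NPNT, a matrix ligand of integrins, was at 142, 139.8, 142 and 139 TPM in AsPC-1, 58.8, 143, 193 and 219.8 in SUIT-2 and 2.33, 2.18 and 1.82 in CFPAC-1. PPP1R1B, a phosphatase inhibitor, was at 52.1, 52.9, 47.2 and 48.2 TPM in AsPC-1, 70.8, 82.3, 135 and 156 in SUIT-2 and 0, 0.168 and 0.404 in CFPAC-1. KRBOX1 was listed at 0 in all CFPAC-1 libraries, with 30.3, 31.1, 30.1 and 30.3 TPM in AsPC-1 and 93.8, 85.2, 53.2 and 48.9 in SUIT-2.

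**Figure D4:**
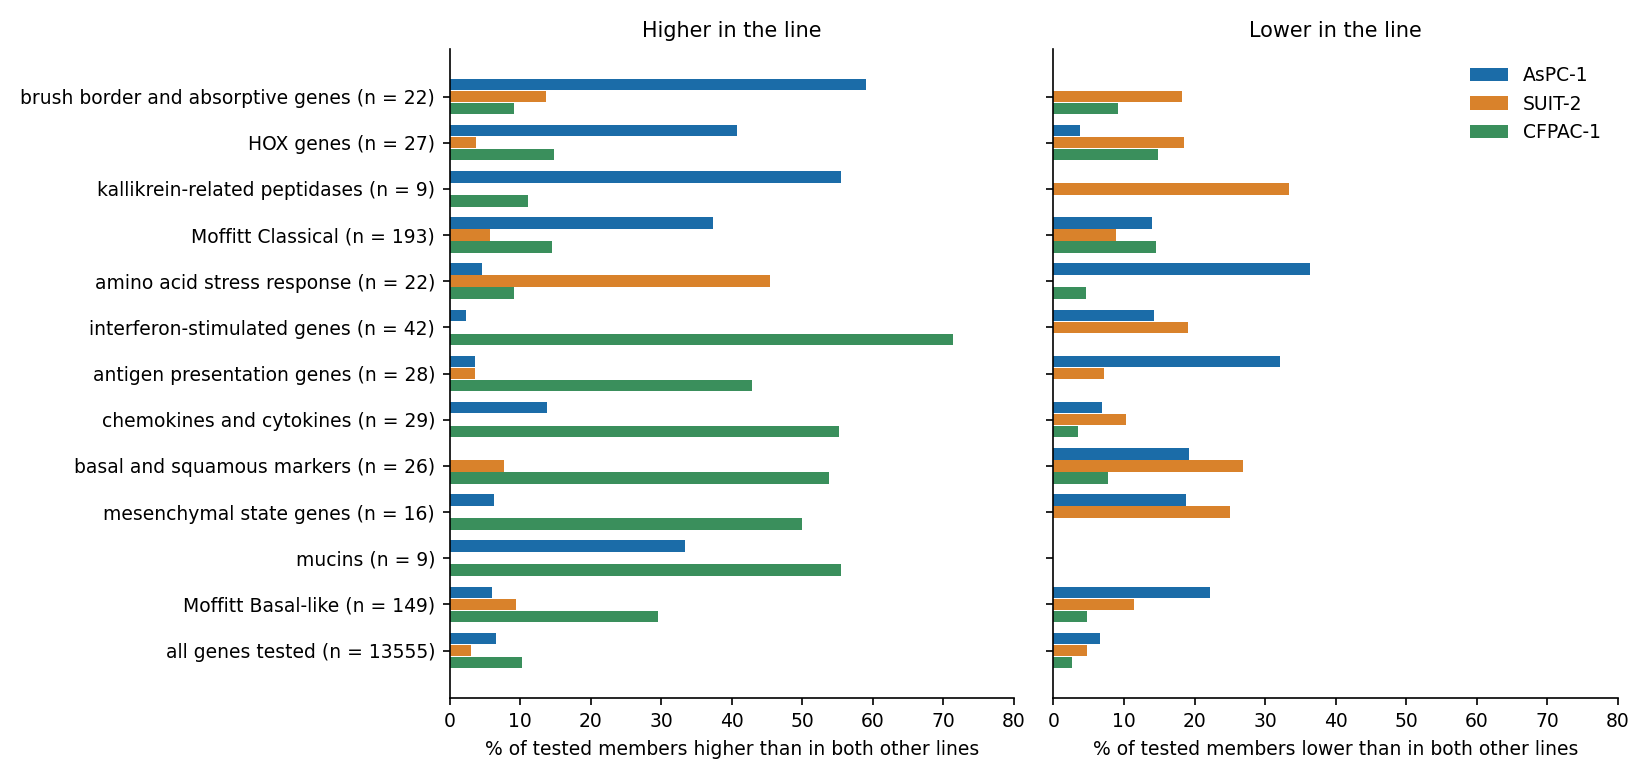
Percentage of the tested members of 12 gene lists, and of all tested genes, that were higher (left) or lower (right) in a line than in both others. Bars are AsPC-1 (blue), SUIT-2 (orange) and CFPAC-1 (green), and n is the number of members tested. Brush border genes stand out in AsPC-1 (13 of 22), the amino acid stress response in SUIT-2 (10 of 22) and interferon-stimulated genes in CFPAC-1 (30 of 42).

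In the subtype signatures, AsPC-1 had the most classical genes above both others and CFPAC-1 the most basal-like genes. Per the study's methods, its Moffitt signatures were compiled by its authors from the expression data of that earlier publication. Of 193 tested genes of the Moffitt Classical signature, 72 were higher and 27 lower in AsPC-1, 11 higher and 17 lower in SUIT-2, and 28 higher and 28 lower in CFPAC-1. Of 149 Moffitt Basal-like genes, 9 were higher and 33 lower in AsPC-1, 14 higher and 17 lower in SUIT-2, and 44 higher and 7 lower in CFPAC-1. Chan-Seng-Yue Classical A (254 tested) had 76 higher and 44 lower in AsPC-1, 21 and 17 in SUIT-2, and 43 and 26 in CFPAC-1. Its median log2 level was 2.80 in AsPC-1, 2.61 in SUIT-2 and 2.92 in CFPAC-1. Basal A (302 tested) had 25 higher and 62 lower in AsPC-1, 25 and 23 in SUIT-2, and 84 and 8 in CFPAC-1. Over all genes, 6.59% were higher and 6.57% lower in AsPC-1, 3.08% and 4.71% in SUIT-2, and 10.3% and 2.67% in CFPAC-1. Median differences were 0.808 and 0.956 for Moffitt Classical genes in AsPC-1 against SUIT-2 and CFPAC-1. With the AsPC-1 controls of experiment 2 the Moffitt Classical count in AsPC-1 was 43 higher and 33 lower, and that of Classical A was 46 higher and 54 lower (47 and 48 with those of experiment 1), so the excess of higher genes in the latter depended on the AsPC-1 controls used. The CFPAC-1 count of Basal-like genes was 44 with the same controls and 37 after scaling.

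KLF5, the factor at the centre of the study, did not differ between the lines beyond the threshold. It was at 159.6, 152, 162 and 148 TPM in AsPC-1, 118, 242, 261 and 292 in SUIT-2 and 206, 199 and 169 in CFPAC-1. The log2 difference was -0.47 (SE 0.23, adjusted p = 0.0993) for AsPC-1 minus SUIT-2, -0.29 (SE 0.25, adjusted p = 0.341) for AsPC-1 minus CFPAC-1 and 0.18 (SE 0.25, adjusted p = 0.554) for SUIT-2 minus CFPAC-1. SUIT-2 replicate 1 holds the lowest value of all libraries, and without it the first of these was -0.759. RUVBL1, an AAA+ ATPase, was at 86.7, 86.8, 84.04 and 79.5 TPM in AsPC-1, 91.8, 132, 108 and 104 in SUIT-2 and 151, 159 and 162 in CFPAC-1. Its partner RUVBL2 was at 99.5, 103, 96.7 and 92.0 TPM in AsPC-1, 110.8, 132, 113 and 102 in SUIT-2 and 184, 194 and 163 in CFPAC-1. CFPAC-1 lies above the other lines in every library of both, with log2 differences of -0.89 (SE 0.12, adjusted p = 3.97e-05) and -0.54 (SE 0.12, adjusted p = 0.00217) for AsPC-1 and SUIT-2 minus CFPAC-1 in RUVBL1, but none reached 1. The sign of the difference in RUVBL2 between AsPC-1 and SUIT-2 turned with other AsPC-1 controls (0.213 with experiment 1, 0.144 with experiment 2). SERPINB5, which encodes maspin and served as a reporter in the study, was at 121, 113, 109 and 92.5 TPM in AsPC-1, 38.6, 69.4, 68.5 and 67.0 in SUIT-2 and 192, 179 and 169 in CFPAC-1.

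The endodermal factors divided the lines in several ways. HNF4A, a nuclear receptor of gut and liver, was at 70.8, 75.4, 71.2 and 63.6 TPM in AsPC-1, 7.45, 22.7, 21.4 and 18.99 in SUIT-2 and 12.99, 13.6 and 8.96 in CFPAC-1. AsPC-1 was higher in HNF4A by 2.04 (SE 0.28, adjusted p = 7.91e-05) than SUIT-2 and by 2.49 (SE 0.31, adjusted p = 2.43e-05) than CFPAC-1, and SUIT-2 minus CFPAC-1 was 0.45 (SE 0.31, adjusted p = 0.236). GATA6 was at 37.0, 37.3, 35.7 and 34.5 TPM in AsPC-1, 6.52, 10.98, 12.1 and 12.1 in SUIT-2 and 16.3, 14.9 and 13.7 in CFPAC-1, but its difference from CFPAC-1, 1.22 ± 0.19, was 0.606 to 0.887 with other AsPC-1 controls and then under the threshold. FOXA2, a pioneer factor of foregut endoderm, ran the other way, at 0.0313, 0, 0 and 0 TPM in AsPC-1, 4.15, 5.75, 4.39 and 5.38 in SUIT-2 and 23.4, 22.6 and 17.5 in CFPAC-1. SOX2, a factor of foregut and squamous epithelium, was listed at 0 in AsPC-1, at 0.11, 0.428, 0.173 and 0.324 TPM in SUIT-2 and at 62.4, 64.0 and 67.8 in CFPAC-1. TP63, the squamous master factor, was at 0.94, 1.12, 0.984 and 0.957 TPM in AsPC-1, 0.16, 0.345, 0.374 and 0.692 in SUIT-2 and 0.95, 1.01 and 0.516 in CFPAC-1, and it passed the filter only just, at a highest line mean of 1.001 TPM. ELF3, an epithelial ETS factor, was at 164, 173, 152 and 163 TPM in AsPC-1, 91.9, 174, 218 and 208 in SUIT-2 and 136, 134 and 129 in CFPAC-1, and no pair of lines passed the threshold in it. Of 20 endodermal factors tested, 4 were higher and 5 lower in AsPC-1, 2 higher and 0 lower in SUIT-2, and 5 higher and 3 lower in CFPAC-1, with 2 in place of 4 higher in AsPC-1 with the controls of experiment 1 or 2. Of 8 genes of the KLF5 and coactivator list, only HNF4A was assigned to a line.

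**Figure D5:**
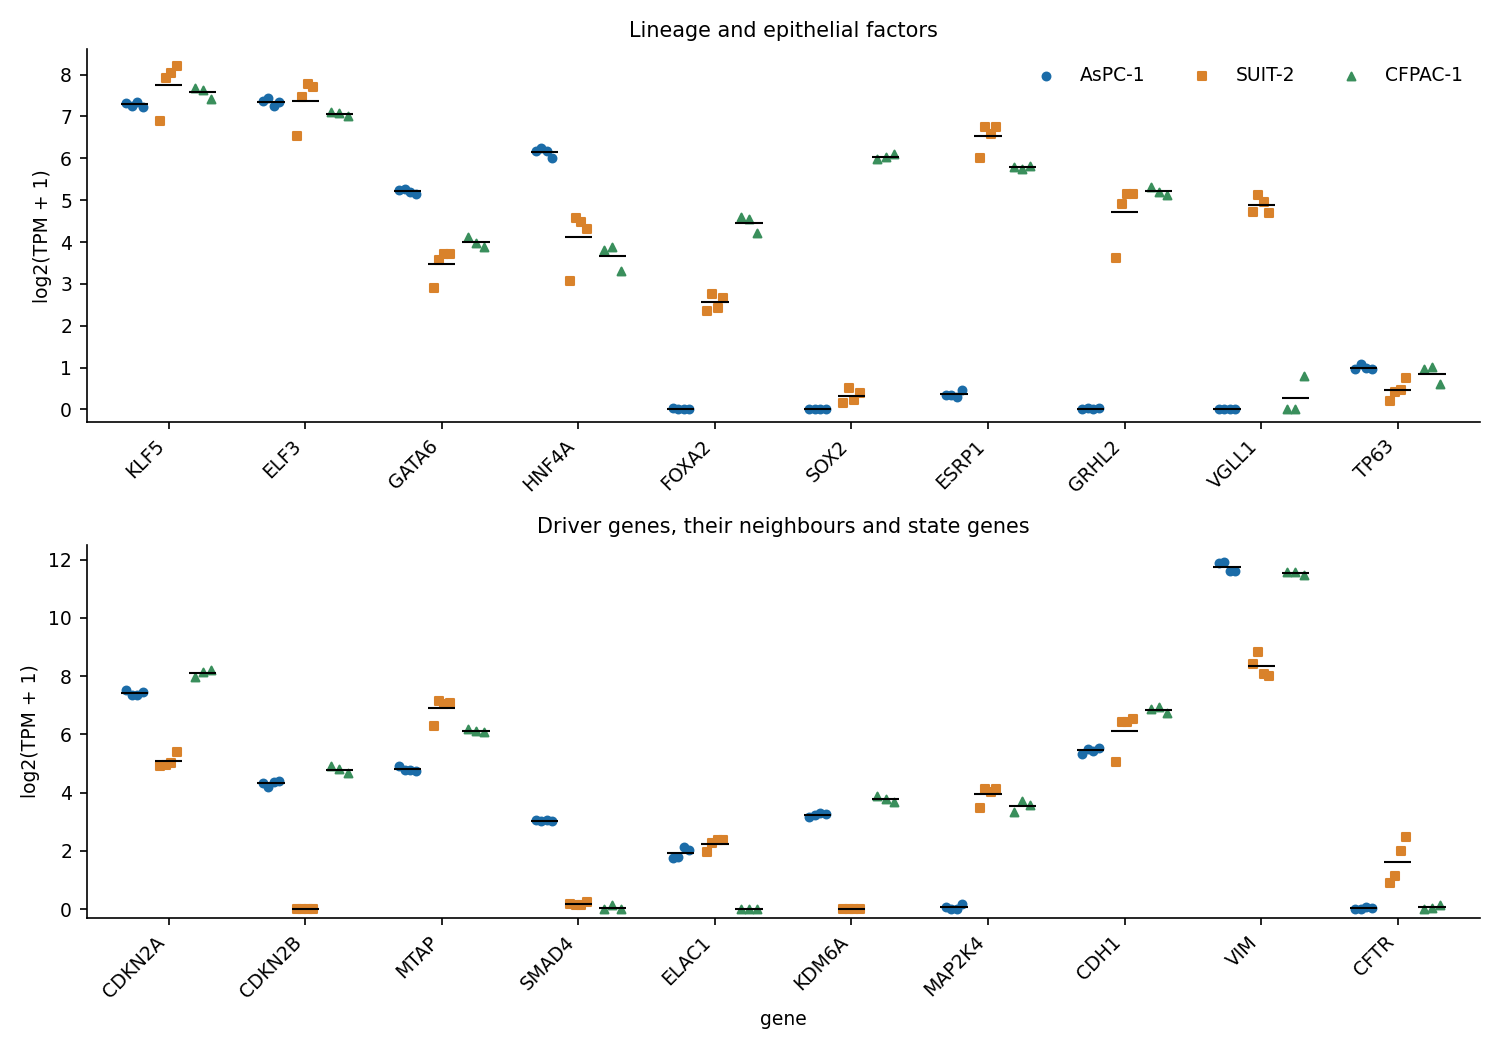
log2(TPM + 1) of 20 genes in each library (points) with the mean of each line (black bars). Top, lineage and epithelial factors; bottom, driver genes, neighbours and state genes. KLF5 in SUIT-2, at 118 to 292.3 TPM with replicate 1 lowest, spans the values of both other lines. AsPC-1 (148.4 to 162.5) and CFPAC-1 (168.7 to 205.5) do not overlap in it. SOX2 is high in CFPAC-1 at 62.4 to 67.8 TPM, and SMAD4 is high in AsPC-1 at 7.08 to 7.31 TPM.

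Tumour suppressor genes of PDAC were near 0 in some lines and not in others. SMAD4, the shared mediator of TGF-beta signals, was at 7.29, 7.08, 7.31 and 7.2 TPM in AsPC-1, 0.126, 0.0922, 0.114 and 0.184 in SUIT-2 and 0, 0.114 and 0 in CFPAC-1. CDKN2A, which encodes p16, was at 184, 162, 164 and 177 TPM in AsPC-1, 29.3, 30.2, 31.3 and 41.05 in SUIT-2 and 248, 279 and 299 in CFPAC-1, so that no line lacked its RNA. CDKN2B, the next gene, was listed at 0 in all SUIT-2 libraries with 19.2, 17.1, 19.9 and 20.3 TPM in AsPC-1 and 28.9, 26.9 and 24.6 in CFPAC-1. MTAP, on the other side of CDKN2A, was at 29.4, 26.2, 26.3 and 25.9 TPM in AsPC-1, 78.1, 141, 131 and 135 in SUIT-2 and 71.6, 68.7 and 67.0 in CFPAC-1. KDM6A, a histone demethylase gene on the X chromosome, was likewise at 0 in SUIT-2, with 8.05, 8.41, 8.88 and 8.59 TPM in AsPC-1 and 13.8, 12.7 and 11.9 in CFPAC-1, as was PUDP, also on the X chromosome, with 17.5, 15.8, 15.5 and 17.5 and 36.4, 43.0 and 42.8 TPM. MAP2K4, a stress kinase gene, was at 0.0519, 0, 0 and 0.128 TPM in AsPC-1, 10.2, 16.4, 15.3 and 16.4 in SUIT-2 and 8.99, 12.2 and 10.9 in CFPAC-1. CFTR, the chloride channel mutated in cystic fibrosis, was at 0, 0, 0.0481 and 0.0237 TPM in AsPC-1, 0.856, 1.2, 2.97 and 4.5 in SUIT-2 and 0, 0.0376 and 0.0923 in CFPAC-1. Of 30 driver genes tested, 1 was higher and 3 lower in AsPC-1, 1 higher and 4 lower in SUIT-2, and none was assigned to CFPAC-1. RNA levels do not show whether a gene is deleted.

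The genes beside these were looked up in RefSeq coordinates (GRCh38). SMAD4 lies at chr18:51030213-51085042. ELAC1, the next gene toward the start of the chromosome at chr18:50968040-50988121, was listed at 0 in CFPAC-1 and at 2.36, 2.5, 3.42 and 3.1 TPM in AsPC-1 and 2.87, 3.82, 4.18 and 4.24 in SUIT-2. The genes flanking this pair, ME2 and MEX3C, had line means of 9.61 to 12.97 and 11.1 to 18.8 TPM, so levels near 0 stopped at SMAD4 in SUIT-2 and at SMAD4 and ELAC1 in CFPAC-1. CDKN2B lies at chr9:22002903-22009313. TUSC1, at chr9:25676969-25678444, was listed at 0 in AsPC-1, with means of 8.89 TPM in SUIT-2 and 7.25 in CFPAC-1. ELAC1, ME2, MEX3C and TUSC1 were chosen after their values were seen.

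Most near-zero genes had no near-zero neighbour. Among 11270 genes whose mean reached 5 TPM in any line, 498 were under 0.5 TPM in AsPC-1, 243 in SUIT-2 and 133 in CFPAC-1, and 110, 36 and 20 of these stood in runs of at least 2 neighbours among the genes considered, of which 28, 10 and 10 stood in runs of 3 or more. The longest, in AsPC-1, held 6 genes at chr11:117427772-118125505, from DSCAML1 over FXYD2 and FXYD6 to TMPRSS13 and TMPRSS4. FXYD2, a subunit that tunes the sodium pump, was at 0.2, 0, 0 and 0 TPM in AsPC-1, 777, 547, 439 and 422 in SUIT-2 and 85.1, 95.1 and 74.2 in CFPAC-1. TMPRSS4, a membrane serine protease, was at 0.0721, 0.356, 0.158 and 0.194 TPM in AsPC-1, 14.3, 30.03, 54.5 and 53.9 in SUIT-2 and 114, 122 and 140.5 in CFPAC-1. FXYD6-FXYD2 is a read-through name whose reads overlap both partners. In CFPAC-1, runs of 4 and 3 genes covered HOXC11 to HOXC8 at chr12:53973126-54012769 and TMEM176B, TMEM176A and AOC1 at chr7:150791301-150861504. TMEM176A was at 169, 168, 175 and 198 TPM in AsPC-1, 1.93, 2.36, 7.55 and 6.8 in SUIT-2 and 0, 0.244 and 0.298 in CFPAC-1. These genes were chosen after their values were seen, and whether the runs reflect loss of DNA was not tested.

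Other lists showed shares closer to those of all genes, or divided over the lines. Of 32 Wnt pathway genes, 5 were higher and 6 lower in AsPC-1 (3 and 3 with the controls of experiment 2), 3 and 3 in SUIT-2, and 6 and 0 in CFPAC-1. Of 31 TGF-beta and BMP genes, 5 were higher and 2 lower in AsPC-1 (3 and 2 without SUIT-2 replicate 1, 4 and 4 with the controls of experiment 2), 2 and 3 in SUIT-2, and 5 and 1 in CFPAC-1. Drug and steroid metabolism was divided, with 9 of 32 higher in AsPC-1, 5 in SUIT-2 and 8 in CFPAC-1, where 8 more were lower. With AsPC-1 controls of experiments 1 and 2 the count higher in AsPC-1 was 6 and 4, and that lower in CFPAC-1 was 5 and 3. Of 27 genes of glycolysis and hypoxia, 7 were higher in CFPAC-1, 1 in AsPC-1 and 0 in SUIT-2, and the 7 became 3 after scaling. Of 33 cell cycle genes, 3 were higher in CFPAC-1 and 1 in SUIT-2, with 2 lower in AsPC-1 and 3 lower in SUIT-2, where 5 and 7 were lower with AsPC-1 controls of experiments 1 and 2. CEACAM6, a surface adhesion protein of classical PDAC, was at 342, 361, 347 and 312 TPM in AsPC-1, 923, 1696, 1877 and 1944 in SUIT-2 and 1172, 1103 and 1127 in CFPAC-1, and its call as lower in AsPC-1 was lost with controls of experiment 1, experiment 2 or the CHD4 experiment.

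Of 158 line assignments of genes named with values here, 15 were lost when the AsPC-1 controls of experiment 1 or 2 were used. They were AREG, MMP1, CHAC1, CEACAM6, NRG1 and LYZ as lower in AsPC-1, AKR1C1, GATA6 and NDRG1 as higher in AsPC-1, SQLE, INSIG1 and HLA-DRA as lower in SUIT-2, and PPP1R1B, KRBOX1 and PRSS1 as higher in SUIT-2.

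Members that lead the remaining lists were spread over the lines. Among Wnt genes, the secreted inhibitor SFRP1 was at 0 TPM in AsPC-1, 0 in SUIT-2 and 41.8 to 50.3 in CFPAC-1, and the receptor LGR6 was at 74.01 to 104 TPM in AsPC-1, 3.06 to 10.7 in SUIT-2 and 3.78 to 4.62 in CFPAC-1. BMP7, a ligand of the BMP pathway, was at 27.2 to 30.5 TPM in AsPC-1, 13.98 to 34.6 in SUIT-2 and 0.153 to 0.407 in CFPAC-1, lowest in CFPAC-1. NRG1, a ligand of ERBB receptors, was at 0.0588 to 0.12 TPM in AsPC-1, 0.784 to 1.31 in SUIT-2 and 17.1 to 20.7 in CFPAC-1. The receptor tyrosine kinase list gave 3 higher and 4 lower of 22 in AsPC-1 (1 higher with the controls of experiment 1 or 2), and its leading members were ephrin receptors. EPHB6 was at 0.212 to 0.624 TPM in AsPC-1, 21.3 to 45.9 in SUIT-2 and 23.1 to 34.2 in CFPAC-1. EPHA4 was at 0.281 to 0.39 TPM in AsPC-1, 5.1 to 17.5 in SUIT-2 and 16.8 to 19.5 in CFPAC-1. GSTT1, a glutathione transferase whose gene is absent from many human genomes, was at 0 to 0.28 TPM in AsPC-1, 0 to 0.248 in SUIT-2 and 71.2 to 92.0 in CFPAC-1. MYO1A, the brush border myosin, was at 82.4 to 98.9 TPM in AsPC-1, 0.0359 to 0.148 in SUIT-2 and 0 to 0.388 in CFPAC-1.

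Of 13 claudins, the sealing proteins of tight junctions, 3 were lower in AsPC-1, 3 higher in SUIT-2 and 2 higher in CFPAC-1. CLDN11 was at 0.648 to 0.9 TPM in AsPC-1, 0.212 to 0.551 in SUIT-2 and 21.5 to 25.5 in CFPAC-1, and CLDN10 was at 0.232 to 0.341 TPM in AsPC-1, 11.03 to 19.9 in SUIT-2 and 17.3 to 20.1 in CFPAC-1. Of 13 matrix metalloproteinases, 4 were higher in CFPAC-1, among them MMP14 at 45.8 to 48.9 TPM in AsPC-1, 21.1 to 73.5 in SUIT-2 and 231 to 278 in CFPAC-1. Of 10 S100 proteins, 2 were higher in CFPAC-1 and 2 lower in SUIT-2. S100A14 was at 11.5 to 17.04 TPM in AsPC-1, 6.91 to 9.26 in SUIT-2 and 49.3 to 57.6 in CFPAC-1. S100P, a calcium-binding protein of pancreatic cancers, was at 8.04 to 15.2 TPM in AsPC-1, 12.9 to 26.6 in SUIT-2 and 63.4 to 76.2 in CFPAC-1. SERPINA1, which encodes alpha-1 antitrypsin, was at 0.49 to 1.29 TPM in AsPC-1, 4.35 to 7.03 in SUIT-2 and 239.9 to 259 in CFPAC-1. The water channel AQP5, of ducts, was at 0.0405 to 0.54 TPM in AsPC-1, 2.77 to 5.08 in SUIT-2 and 246 to 263 in CFPAC-1, and CEACAM19 was at 2.18 to 3.31 TPM in AsPC-1, 1.9 to 7.04 in SUIT-2 and 11.1 to 24.2 in CFPAC-1. The hypoxia list had members of opposite order in AsPC-1. BNIP3, a mitophagy receptor, was at 0.329 to 0.499 TPM in AsPC-1, 13.7 to 21.8 in SUIT-2 and 128 to 143 in CFPAC-1. NDRG1, a stress-induced gene, was at 172 to 192 TPM in AsPC-1, 18.1 to 37.9 in SUIT-2 and 24.6 to 30.6 in CFPAC-1. The rest followed no common order. HLA-DMB, which loads peptide on class II molecules, was at 0.381 to 1.24 TPM in AsPC-1, 26.1 to 64.3 in SUIT-2 and 17.4 to 30.8 in CFPAC-1. TOP2A, a topoisomerase of dividing cells, was at 93.2 to 122 TPM in AsPC-1, 60.4 to 106 in SUIT-2 and 405 to 471 in CFPAC-1, and the kinase gene CDK6 was at 12.9 to 18.97 TPM in AsPC-1, 7.34 to 14.9 in SUIT-2 and 56.4 to 67.2 in CFPAC-1. Among cancer germline antigens, PRAME was at 0 to 0.129 TPM in AsPC-1, 13.6 to 30.6 in SUIT-2 and 0.584 to 1.1 in CFPAC-1. MAGED4 was at 0 TPM in AsPC-1, 2.49 to 7.74 in SUIT-2 and 13.7 to 19.5 in CFPAC-1, although MAGED4 has a near-identical copy.

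The levels of markers of other cell types that passed the filter ranged widely. PRSS1, which encodes trypsinogen, was at 0 to 0.0944 TPM in AsPC-1, 0.233 to 2.72 in SUIT-2 and 0 to 0.193 in CFPAC-1. CELA3A, an elastase gene, was at 0.177 to 0.546 TPM in AsPC-1, 2.48 to 3.57 in SUIT-2 and 0 to 1.99 in CFPAC-1. PAX6, an endocrine factor, was at 0.355 to 0.483 TPM in AsPC-1, 7.29 to 17.9 in SUIT-2 and 1.42 to 2.17 in CFPAC-1, and CHGB, a granule protein, was at 0 TPM in AsPC-1, 0 in SUIT-2 and 1.38 to 2.46 in CFPAC-1. ISL1, a LIM factor of islet cells, was at 13.9 to 15.7 TPM in AsPC-1, 5.74 to 8.99 in SUIT-2 and 5.49 to 6.81 in CFPAC-1 and SYP, which encodes synaptophysin, was at 0.493 to 0.894 TPM in AsPC-1, 0.163 to 0.35 in SUIT-2 and 0.61 to 1.61 in CFPAC-1. The sum of 12 endocrine markers was 15.26 to 16.67 TPM in AsPC-1, almost wholly ISL1, 13.45 to 27.15 in SUIT-2 and 11.3 to 11.77 in CFPAC-1. The leukocyte sum of 262 to 280 TPM in CFPAC-1, 146 to 170 in AsPC-1 and 47.1 to 93.9 in SUIT-2 was made up largely of CD68, at 134 to 158 TPM in AsPC-1, 28.7 to 56.5 in SUIT-2 and 132 to 164 in CFPAC-1, and of lysozyme, LYZ, at 4.78 to 6.66 TPM in AsPC-1, 16.1 to 34.1 in SUIT-2 and 109 to 124 in CFPAC-1. Both are also known outside blood cells. PTPRC, which encodes CD45 and defines leukocytes, was at 0.362 to 1.5 TPM in AsPC-1, 1.15 to 1.34 in SUIT-2 and 1.3 to 2.39 in CFPAC-1. CD14, of monocytes, was at 3.98 to 5.32 TPM in AsPC-1, 0.0766 to 0.792 in SUIT-2 and 3.15 to 5.48 in CFPAC-1. COL1A1 was at 0.222 to 0.292 TPM in AsPC-1, 0.196 to 1.36 in SUIT-2 and 9.62 to 16.2 in CFPAC-1. Their part in the results was not tested.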

How the data were processed

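RNA-seq libraries of polyadenylated RNA from AsPC-1, SUIT-2 and CFPAC-1 cells carrying sgRosa were analysed. The values deposited by the authors are TPM (transcripts, normalised for length, per library of fixed total), made with kallisto on hg38 and tximport. The study's methods name a removal of low-abundance transcripts with its differential expression, and do not state it for the TPM. Every library has the same total, so depth is unknown. Of 19875 rows, 106 carry a fragment of a description in place of a gene name (1.21% to 2.05% of TPM) and were dropped. CD44, AQP1, NQO1, ASNS and MTHFD2 have no values for this reason. For the remaining 19769 names, 19283 matched the RefSeq reference, which gave coordinates and promoters. A further 48 names, sex-linked, were not used for naming genes.

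A gene whose mean reached 1 TPM in any line entered a limma fit (version 3.58.1, R 4.3.3) of log2(TPM + 1) on line, with trended empirical Bayes variance and Benjamini-Hochberg adjustment over all tested genes. Fold changes on that scale understate changes of low genes. The fit was tested on simulated data. Alternatives were the pseudocount, the filter, the scaling, the variance model, the fold minimum, other AsPC-1 controls, CFPAC-1 replicate 2 and each library left out, and the fit with a replicate block. Leaving out SUIT-2 replicate 1 with CFPAC-1 replicate 4, and the alternatives for the comparison of AsPC-1 control sets, were chosen after seeing the data.

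The genes and lists were chosen with earlier results of these data known. Genes named are, per line, the 10 with the largest smaller difference among those higher and the 6 among those lower, whose libraries do not overlap, up to 4 per list by the same order, and a set of lineage and driver genes given in every case. A few genes that this rule names are not reported here. Others were chosen after their values were seen: CHAC1, ISG15, IFIT1, FXYD2, TMPRSS4, TMEM176A, ELAC1, ME2, MEX3C, TUSC1, CD68, PTPRC, ISL1, SYP and list members named only as passing the test. Replicate numbers did not pair libraries: residuals of same-numbered libraries of different lines correlated at -0.236 to 0.192, those of other numbers at -0.277 to 0.355.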

Additional observations from a re-analysis of the deposited data

Results flagged for a closer look

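In 23 of 266 groups of 4 libraries checked, made up of the genes given above in AsPC-1 or SUIT-2, 1 library lay far from the other three relative to the range of the group. A chance rate of about 1 in 20 holds only for independent values with a normal distribution. A group in which a single library holds any TPM is always flagged, and SUIT-2 replicate 1 recurs among the flags. The 23 of 266 therefore cannot be compared with that rate.

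Most of the flagged groups in SUIT-2 concern replicate 1, the library that stands apart over all genes. It was lower than the others in CDH1 (32.22 against 84.32 to 91.42 TPM), EREG (32.91 against 155.7 to 160.8), LDOC1 (32.75 against 52.73 to 56.2), HMGCS1 (5.692 against 12.4 to 13.25), INSIG1 (5.132 against 10.9 to 11.68) and SERPINB5 (38.61 against 67.02 to 69.42). The same held for MTAP (78.06 against 131.1 to 140.7), NRG1 (0.7845 against 1.301 to 1.315) and MMP14 (21.08 against 67.13 to 73.48). It was higher in CLDN11 (0.5508 against 0.2125 to 0.2331) and in TFF1 (0.4905, with the others at 0). Replicate 3 of SUIT-2 was higher in HLA-DRB1 (3.342 against 1.937 to 2.117), CA9 (0.07115, others at 0) and MUC17 (0.007624, others at 0).

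In AsPC-1, 7 groups hold a single library above 0: IGFBP7 (0.1359 TPM), CST6 (0.321), IL6 (0.04264), EFEMP1 (0.05637), CDH2 (0.03923), FOXA2 (0.03134) and FXYD2 (0.1997). MTAP was higher in replicate 1 (29.38 against 25.94 to 26.34) and LYZ was lower in replicate 3 (4.78 against 6.518 to 6.658).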

How the results depend on the processing

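Requiring 1 TPM in every line gave 2188 genes between AsPC-1 and SUIT-2 and 2501 between AsPC-1 and CFPAC-1, with 591 higher and 407 lower in AsPC-1, 190 higher in SUIT-2 and 750 higher in CFPAC-1, since genes near 0 in a line were then not tested. With no fold minimum the pairs gave 7522 (AsPC-1 and SUIT-2), 7729 (AsPC-1 and CFPAC-1) and 7517 (SUIT-2 and CFPAC-1), and the lines 2138 higher and 1991 lower (AsPC-1), 1088 and 2399 (SUIT-2), and 3260 and 1027 (CFPAC-1). A log2 minimum of 2 gave 266 and 369, 96 and 108, and 411 and 74. Scaling by the median of ratios gave 631 higher and 365 lower in SUIT-2 and 572 lower in CFPAC-1. These held 99.8% of the 418, 57.1% of the 639 and 99.7% of the 362. A pseudocount of 0.1 TPM gave 548 lower in CFPAC-1, and 1062, 1170 and 438 for AsPC-1 experiment 3 against experiments 1, 2 and CHD4. The cause of these shifts was not tested. Leaving out 1 library gave 3203 to 3519, 3951 to 4028 and 3298 to 3803 for the pairs in the same order, 790 to 947 higher and 854 to 994 lower in AsPC-1, 374 to 552 and 465 to 802 in SUIT-2, and 1268 to 1471 and 325 to 446 in CFPAC-1, and 555 to 891, 731 to 791 and 206 to 233 for the AsPC-1 control sets. The replicate block gave 3319, 3989 and 3573 for the pairs, and 879 and 894 (AsPC-1), 408 and 647 (SUIT-2), and 1416 and 354 (CFPAC-1), so it moved no count by as much as 1.5 times. Only 2 of 11 libraries had their best match in another line in one of their own number. Signs reversed with other AsPC-1 controls in RUVBL2 against SUIT-2 (0.213 with experiment 1, 0.144 with experiment 2) and SERPINB5 against CFPAC-1 (0.017 with experiment 2). Of the other values of 219 named differences over 24 settings, 5051 kept their side of the threshold, 35 fell under it and 14 passed it. A change of sign counts as kept where neither value passed the threshold and the shift was small against the spread. Settings in which a gene was not tested are left out of these numbers. This concerns mainly the filter of 1 TPM in every line, under which most assignments of named genes could not be made. Depth is unknown, so levels near 0 have no counting interval.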
